A study of Homo sapiens with 14 samples.

Results

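The nuclear genes of oxidative phosphorylation are described here across the RNA libraries of a glioblastoma cell line made radioresistant and then depleted of the DNA sensor IFI16. Members were all rows of the 2 expression tables whose symbol begins with NDUFA, NDUFB, NDUFC, NDUFS, NDUFV, SDHA to SDHD, UQCR, COX4 to COX8 or ATP5. From 109 such rows, 6 with pseudogene endings and 3 antisense rows were left out, which gave 100 members of 24489 rows. Complex I had 37 members, complex II 4, complex III 9, complex IV 19 and complex V 17. A further 12 members were assembly factors that carry the same prefixes, and 2 were read-through rows. The tables use older symbols for 21 members, such as ATP5G1 for ATP5MC1 and ATP5E for ATP5F1E, and these symbols are kept here.

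Complexes I to IV of the inner mitochondrial membrane pass electrons from NADH and succinate to oxygen and build a proton gradient, which complex V, the ATP synthase, spends to make ATP. Most subunits are encoded in the nucleus and imported, while a core set is encoded in mitochondrial DNA, so that both genomes must supply matched parts. Glioblastoma cells are known for strong glycolysis, yet they keep a working respiratory chain.

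RNA-seq covered U251MG, an established human glioblastoma line labelled as wild type, in 4 groups of 3 libraries. One pair of groups sets control cells against cells selected as radioresistant with X-rays, 2 Gy at a time over 30 fractions (60 Gy). The other groups were radioresistant cells with a hairpin labelled shNC and radioresistant cells with a hairpin against IFI16 (shIFI16), so both arms of the knockdown carry the radioresistant background. No second hairpin or rescue is named, and replicates are not said to be separate cultures, so every p-value here rests on library-to-library spread alone, part or all of which may be technical. Columns of the tables carry codes, and their match to the groups was inferred from the prefixes of the ATAC-seq pair. IFI16 stood at 125, 139.6 and 127 TPM (shNC) against 7.68, 7.901 and 6.71 TPM (shIFI16), which went with that reading. In the first table, where no gene was targeted to check the match, it stood at 70.3, 71.1 and 49.6 TPM (control) against 250.8, 309 and 243 TPM (radioresistant). Values are TPM (a transcript abundance scaled for gene length and library total), so the depth behind them is unknown, and in bulk RNA fewer expressing cells and less RNA per cell cannot be told apart. Each comparison was made inside its own table. Of 7 astrocyte and glioma markers, 6 or 7 averaged at least 1 TPM in each group, led by VIM, with a summed level of 15077 to 15322 TPM in control, 6592 to 7169 in radioresistant, 7359.5 to 7978 in shNC and 5493 to 6416 in shIFI16 libraries. Of 6 immune markers 0 or 1 did so, with AIF1 and CD3E at 0 in every group and the summed level between 0.232 and 2.43 TPM. Summed endothelial markers stood at 12.4 to 14.2 TPM in control, 4.66 to 5.07 in radioresistant, 6.02 to 6.64 in shNC and 11.7 to 14.2 in shIFI16 libraries, and the part of either marker list in the results was not tested. Control replicate 3 stood apart from the other control libraries, and the called genes that it moved most are given with and without it.

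RefSeq (GRCh38.p14) gave a promoter for 81 of the 100 members, from 250 bases before to 50 after the start, and the first listed start of each gene was read. Letters were searched on both strands: GCGCATGCG for NRF1 and its looser form GCGCANGCG, which includes the first, CCGGAAG for ETS factors such as GABP, AAGATGGCG for YY1, GGGCGG for SP1 and CCAAT for the CCAAT box. The 5 promoters printed here are the 250 bases before the start, 5′ to 3′ on the gene's strand, with every match in capitals. ATP5J (chr21:25735055-25735304, minus strand) is shown because it holds NRF1, ETS and YY1 letters together. NDUFA6 (chr22:42090773-42091022, minus strand) and NDUFA11 (chr19:5903791-5904040, minus strand) are shown because each had an open-chromatin summit nearby in both ATAC-seq libraries. ATP5G1 (chr17:48892537-48892786, plus strand) and SDHAF4 (chr6:70566680-70566929, plus strand) are the members with the largest called rise and fall in radioresistant cells.
ATP5J: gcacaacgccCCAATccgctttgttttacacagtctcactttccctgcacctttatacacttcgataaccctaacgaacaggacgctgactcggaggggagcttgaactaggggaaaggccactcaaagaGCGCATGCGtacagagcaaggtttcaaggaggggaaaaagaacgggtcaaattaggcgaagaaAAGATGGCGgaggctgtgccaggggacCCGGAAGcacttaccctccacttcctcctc
NDUFA6: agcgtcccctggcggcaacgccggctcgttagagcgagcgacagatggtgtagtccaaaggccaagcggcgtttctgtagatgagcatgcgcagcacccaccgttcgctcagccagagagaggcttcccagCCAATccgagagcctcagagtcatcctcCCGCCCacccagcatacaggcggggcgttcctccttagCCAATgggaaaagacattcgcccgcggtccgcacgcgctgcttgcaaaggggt
NDUFA11: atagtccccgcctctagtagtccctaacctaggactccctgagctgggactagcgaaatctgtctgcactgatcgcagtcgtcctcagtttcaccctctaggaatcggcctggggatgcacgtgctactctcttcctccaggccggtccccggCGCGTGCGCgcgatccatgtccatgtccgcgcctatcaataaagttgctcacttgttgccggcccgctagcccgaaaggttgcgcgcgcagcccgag
ATP5G1: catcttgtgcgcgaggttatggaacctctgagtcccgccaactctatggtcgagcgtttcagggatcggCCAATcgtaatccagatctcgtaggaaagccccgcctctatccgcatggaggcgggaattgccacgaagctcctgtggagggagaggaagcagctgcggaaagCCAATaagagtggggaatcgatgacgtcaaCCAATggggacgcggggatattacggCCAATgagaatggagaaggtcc
SDHAF4: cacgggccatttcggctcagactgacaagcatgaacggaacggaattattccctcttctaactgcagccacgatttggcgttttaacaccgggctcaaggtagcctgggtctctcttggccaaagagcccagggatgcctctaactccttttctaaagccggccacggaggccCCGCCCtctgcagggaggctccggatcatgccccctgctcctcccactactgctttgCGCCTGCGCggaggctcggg

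ATP5J has an NRF1 match that begins 120 bases before the start, YY1 letters at 57 and ETS letters at 30. In ATP5G1, by contrast, 4 CCAAT boxes are the only matches, at 181, 78, 48 and 22 bases. SDHAF4 holds the looser NRF1 letters at 20 bases and SP1 letters at 77, and NDUFA11 only the looser NRF1 letters at 97. Over the 300 bases of all 81 member promoters, NRF1 letters were found in 11 (13.6%), against 2.76% of the first promoters of 15842 protein-coding genes. The looser NRF1 form was found in 30.9% against 11.02%, ETS letters in 27.2% against 14.2% and YY1 letters in 9.88% against 2.74%. SP1 letters (56.8% against 58.5%) and the CCAAT box (33.3% against 36.4%) were no more frequent in member promoters. Median GC content was 61.0% in member promoters and 62.7% in all. The 11 members with NRF1 letters were ATP5C1, ATP5G2, ATP5I, ATP5J, COX6A1, NDUFA8, NDUFAF5, NDUFB4, NDUFS6, NDUFS7 and SDHD. Among these 11 only NDUFB4, an accessory subunit of complex I, passed the test in radioresistant cells, where 43.9% of all genes tested did. Its fall of 0.35 log2 units (limma adjusted p = 0.022) did not pass without control replicates 1 (0.055) and 2 (0.13) and radioresistant replicates 1 (0.053) and 3 (0.092), nor with median-ratio scaling (0.071). A match is a run of letters and not a bound site.

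ATAC-seq, which tags open chromatin, was deposited as 1 list of summits per condition, so its values have no replicate and no test. A summit lay within 1000 bases of a listed start in 6 of 81 members (7.41%) in the control library, against 4.78% of 15842 genes. In the radioresistant library the number was 35 of 81 (43.2%), against 25.97% of genes. That library holds 12877 summits and the control library 2454, a ratio of 5.25, so the 2 lists cannot be set against each other. Among genes with a mean of at least 50 TPM in the matching RNA group, 28 of 64 members (43.8%) and 42.2% of 2963 genes had a summit in the radioresistant library. NDUFA6, NDUFA11, COX7A2, UQCRQ and ATP5SL had a summit in both lists, and COX7A2L, which helps to join complexes III and IV, had one in the control list only. By the RNA result in radioresistant cells, 8 of 11 higher members, 6 of 16 lower members and 21 of 49 members not past the threshold had a summit in the radioresistant list. The other 5 members were not tested and had none. The same shares were not computed over all genes, so this split cannot be read as particular to the members. For the genes whose promoters are printed above, the nearest radioresistant summit lay 31 bases from a listed start of SDHAF4, 61 from ATP5J, 162 from NDUFA6, 361 from ATP5G1 and 738 from NDUFA11. Where a gene has several listed starts, the nearest was used, which need not be the start of the printed sequence.

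In radioresistant cells the nuclear genes of oxidative phosphorylation moved in both directions, with all libraries in every case but 1 by less than 2-fold, and without control replicate 3 in all but 6. Of 91 members tested, 13 were higher and 21 lower than in control cells, 34 in all or 37.4% (limma on log2(TPM + 1), adjusted p under 0.05). The background was 43.9% of 13127 genes tested, with 16.9% higher and 27.0% lower, so members were called no more often than other genes. Members with a mean of at least 50 TPM were called in 25 of 77 cases (32.5%), against 44.2% of all such genes. Their median log2 change was -0.06 beside -0.11 for all genes, or 0.04 relative to that median, and 51 of 91 lay above it. The middle 50% of members spanned -0.30 to 0.21, and that of all genes -0.43 to 0.24. Only SDHAF4 changed by 1 or more on the log2 scale, as did 11.6% of all genes. Without control replicate 3 the number was 6, with NDUFA3, NDUFA1, COX6B1, UQCRH and UQCR10 beside SDHAF4, and the share of all genes 12.3%. With the libraries scaled by median ratios, which put the median of all genes at 0.01, 15 members were higher and 13 lower. All 34 called members kept their direction under that scaling and under quantile normalization.

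**Figure D1:**
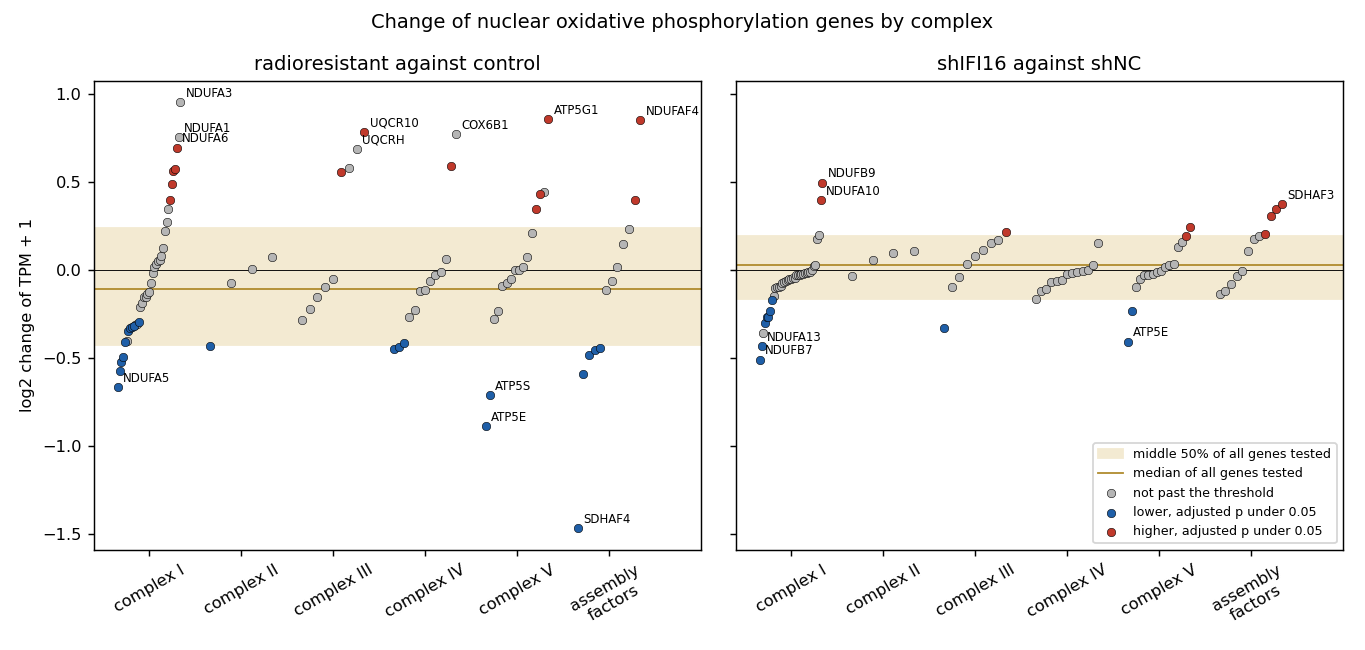
Log2 change of TPM + 1 for each tested member (points, ordered within a complex by size of change) in radioresistant against control cells (left) and shIFI16 against shNC cells (right). Red and blue points passed adjusted p 0.05, the band holds the middle 50% of all genes tested and the line is their median; on the left members reach from -1.47 (SDHAF4) to 0.95 (NDUFA3, not past the threshold), on the right from -0.51 (NDUFB7) to 0.50 (NDUFB9).

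Complex I, the NADH dehydrogenase, had 5 members higher and 10 lower of 37 tested (40.5% called, background 43.9%, median -0.12). Its 7 catalytic subunits, which carry the flavin and the iron-sulfur clusters, had 3 lower and 0 higher. Of all genes tested, 27.0% were lower and 16.9% higher. NDUFS8, an iron-sulfur subunit, stood at 419, 448 and 391 TPM (control) against 318, 286 and 289 TPM (radioresistant). All radioresistant libraries lay below all control libraries, a fall of 0.49 log2 units (SE 0.104, limma adjusted p = 0.0032). NDUFS1, the largest iron-sulfur subunit, fell by 0.41 log2 units (SE 0.115, limma adjusted p = 0.015), and this call ended without control replicates 1 (0.058) and 2 (0.060) and radioresistant replicates 1 (0.054) and 3 (0.066). NDUFS3 (0.27, adjusted p = 0.053), NDUFS7 (0.12, 0.53), NDUFV1 (-0.15, 0.40) and NDUFV2 (0.06, 0.75) did not pass. The positive signs among the catalytic subunits thus came only from members that did not pass.

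Among the 30 accessory subunits of complex I, 5 were higher and 7 lower (40% called, background 43.9%). NDUFA6, a subunit of the LYR family on the matrix arm, stood at 118, 118 and 100.1 TPM (control) against 199, 161 and 185 TPM (radioresistant). Its groups did not overlap, and it rose by 0.69 log2 units (SE 0.119, limma adjusted p = 9.8e-04). NDUFV3, a small subunit of the NADH-binding module, rose from 28.5, 31.5 and 32.5 TPM to 45.2, 45.9 and 46.6 TPM by 0.56 log2 units (SE 0.112, limma adjusted p = 0.0025). NDUFA5, a matrix-arm subunit and the lowest of complex I by mean TPM, fell from 34.1, 31.6 and 27.03 TPM to 17.5, 21.9 and 18.1 TPM by 0.66 log2 units (SE 0.139, limma adjusted p = 0.0032). NDUFB1, a membrane-arm subunit, fell by 0.52 log2 units (SE 0.128, limma adjusted p = 0.0074), from 262, 258 and 229.6 TPM to 181, 146 and 197 TPM. NDUFA9, a subunit beside the quinone site, rose by 0.39 (limma adjusted p = 0.014). This call ended without control replicate 2 (0.087) and radioresistant replicate 2 (0.061). NDUFB10, of the membrane arm, rose by 0.57 (adjusted p = 0.035), or by 0.81 without control replicate 3, although control replicate 3 (275 TPM) lay above radioresistant replicate 3 (272 TPM), and the call ended without control replicates 1 (0.082) and 2 (0.10) and radioresistant replicates 1 (0.10), 2 (0.10), 3 (0.070).

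Complex II, succinate dehydrogenase, links the citrate cycle to the chain and has no subunit encoded in mitochondrial DNA. SDHC, a membrane anchor, was its 1 called member of 4 (25%, background 43.9%). It stood at 50.1, 48.7 and 51.98 TPM (control) against 38.3, 35.9 and 36.8 TPM (radioresistant), with no overlap, and fell by 0.43 log2 units (SE 0.108, limma adjusted p = 0.0083). The catalytic subunits SDHA (-0.08, adjusted p = 0.55) and SDHB (0.01, 0.97) and the second anchor SDHD (0.07, 0.65) had overlapping groups. Summed over the complex, TPM ran from 507 to 521 in control and from 483 to 514 in radioresistant libraries.

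Complex III, the cytochrome bc1 complex, had 2 members higher and 0 lower of 9 (22.2% called, background 43.9%). UQCR10, a small subunit next to the Rieske protein, stood at 122, 135 and 210.0 TPM (control) against 266, 245 and 271 TPM (radioresistant). Control replicate 3 was the highest control library but still below every radioresistant one, and UQCR10 rose by 0.78 log2 units (SE 0.177, limma adjusted p = 0.0050), or by 1.02 without that library. UQCRB, a quinone-binding subunit, rose from 30.4, 38.7 and 58.4 TPM to 60.9, 59.5 and 61.5 TPM by 0.55 log2 units (SE 0.196, limma adjusted p = 0.041), or by 0.80 without control replicate 3, and the call ended without control replicates 1 (0.12) and 2 (0.12) and radioresistant replicates 1 (0.091), 2 (0.089), 3 (0.12). The Rieske iron-sulfur subunit UQCRFS1 (-0.05, adjusted p = 0.74) and the core protein UQCRC1 (-0.22, 0.082) did not pass.

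Complex IV, cytochrome c oxidase, had 1 member higher and 3 lower of 13 tested (30.8% called, background 43.9%). COX5A, a matrix-side subunit, stood at 201, 209 and 318 TPM (control) against 353, 355 and 365 TPM (radioresistant). It rose by 0.59 log2 units (SE 0.161, limma adjusted p = 0.013), or by 0.80 without control replicate 3, with that library between the other control libraries and the radioresistant ones, and did not pass without control replicate 2 (0.057) and radioresistant replicate 3 (0.054). COX7C, the member of complex IV with the highest mean TPM, fell from 3075, 2431 and 2731 TPM to 2046, 1948 and 2054 TPM by 0.44 log2 units (SE 0.114, limma adjusted p = 0.0099). COX7A2, a small membrane subunit, fell from 720.4, 639 and 551 TPM to 472, 435 and 484 TPM by 0.45 log2 units (SE 0.1197, limma adjusted p = 0.011). COX5B, which binds zinc, fell by 0.41 (limma adjusted p = 0.028). It did not pass without control replicate 2 (0.080) and radioresistant replicates 2 (0.11) and 3 (0.058). With median-ratio scaling neither COX7C (adjusted p = 0.069) nor COX5B (0.18) passed. The early-assembling subunit COX4I1 did not pass (-0.12, adjusted p = 0.37).

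Several subunits of complex IV exist as alternative isoforms, and in the sets COX4I, COX6A, COX6B, COX8 and NDUFA4 one form held nearly all the TPM. COX4I2, COX6A2, COX7B2 and COX8C, forms known from lung, muscle or testis, were listed at 0 in all 12 libraries. Against them COX4I1 stood at 586, 569 and 637 TPM, COX6A1 at 74.6, 94.1 and 88.5 TPM and COX8A at 1147, 1315 and 1636 TPM in control libraries. COX6B2 and COX7A1, also listed above 0 in some libraries, stayed under 0.2 TPM. NDUFA4L2, the hypoxia-linked relative of the complex IV subunit NDUFA4, lay between 0.512 and 2.24 TPM, beside 171, 138 and 149 TPM for NDUFA4 in control libraries. With ATP5L2 and the read-through row ATP5J2-PTCD1, 8 members stayed under 1 TPM in every library and were not tested. NDUFC2-KCTD14, the other read-through row, was tested in the knockdown set only.

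Complex V, the ATP synthase, had 3 members higher and 2 lower of 16 (31.25% called, background 43.9%). The proton-driven c ring is built from identical proteins made by 3 genes, ATP5G1, ATP5G2 and ATP5G3, which differ in their import signals. ATP5G1, whose printed promoter holds 4 CCAAT boxes, stood at 279, 270.3 and 314 TPM (control) against 525, 513 and 524 TPM (radioresistant). The lowest radioresistant library was far above the highest control library, a rise of 0.85 log2 units (SE 0.102, limma adjusted p = 9.0e-05). ATP5G3 rose by 0.43 log2 units (SE 0.147, limma adjusted p = 0.035), from 91.6, 90.7 and 131 TPM to 143, 130.1 and 145 TPM, and by 0.61 without control replicate 3. The rise did not pass without control replicates 1 (0.092) and 2 (0.15) and radioresistant replicates 1 (0.091) and 3 (0.12). ATP5G2 stood at 321, 385 and 443 TPM and 380.2, 389.7 and 379.9 TPM (change 0.01, adjusted p = 0.94). The 3 c ring genes were not tested against each other. ATP5G1 was thus the lower of the pair ATP5G1 and ATP5G2 in control libraries and the higher in radioresistant ones.

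ATP5E, the small epsilon subunit of the central stalk, was the member of complex V with the highest mean TPM, at 2994, 2826 and 2644 TPM (control) against 1553, 1412 and 1611 TPM (radioresistant). It fell by 0.89 log2 units (SE 0.106, limma adjusted p = 9.2e-05) with no overlap between groups. Its pseudogene row ATP5EP2, left out by the rule, stood at 44.1, 32.5 and 22.5 TPM in control and 11.3, 12.6 and 13.6 TPM in radioresistant libraries, so reads shared between the 2 rows could not be told apart. ATP5S, coupling factor B, fell from 14.1, 14.4 and 12.8 TPM to 8.51, 8.05 and 7.45 TPM by 0.71 log2 units (SE 0.128, limma adjusted p = 0.0013). ATP5O, the stalk subunit that confers oligomycin sensitivity, rose by 0.34 (limma adjusted p = 0.039). Its call was lost without control replicates 2 (0.14) and 3 (0.052) and radioresistant replicates 1 (0.064), 2 (0.13), 3 (0.085). The F1 head subunits ATP5A1 (-0.23, adjusted p = 0.10) and ATP5B (-0.00093, adjusted p = 0.995) did not pass. Summed TPM of complex V was 8212 to 8639 in control and 7360.3 to 7856 in radioresistant libraries.

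Assembly factors under the same prefixes were called in 7 of 12 cases (58.3%, background 43.9%), 2 higher and 5 lower. SDHAF4, which helps to join the flavin subunit SDHA to SDHB, had the largest change of any member. It stood at 63.9, 54.5 and 50.4 TPM (control) against 20.5, 19.1 and 19.2 TPM (radioresistant), and it fell by 1.47 log2 units (SE 0.126, limma adjusted p = 9.6e-06). Beside this fall the levels of SDHA and SDHB did not pass the test. NDUFAF4, a complex I factor, rose from 23.9, 20.95 and 15.03 TPM to 31.8, 37.99 and 38.99 TPM by 0.85 log2 units (SE 0.1697, limma adjusted p = 0.0024), or by 0.67 without control replicate 3. NDUFAF3, which works with NDUFAF4 as a pair in complex I assembly, went the other way, falling from 135, 137 and 127 TPM to 96.2, 103 and 93.99 TPM by 0.44 log2 units (SE 0.101, limma adjusted p = 0.0052). NDUFAF1, a factor of the membrane arm, fell by 0.48 log2 units (SE 0.1197, limma adjusted p = 0.0079). SDHAF3, a factor for the iron-sulfur subunit SDHB, fell by 0.59 (limma adjusted p = 0.012). That fall did not pass without control replicate 2 (0.060) and radioresistant replicate 3 (0.055). NDUFAF2 rose by 0.40 (limma adjusted p = 0.017). This rise did not pass without control replicate 1 (0.066) and radioresistant replicates 1 (0.057) and 3 (0.071).

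**Figure D2:**
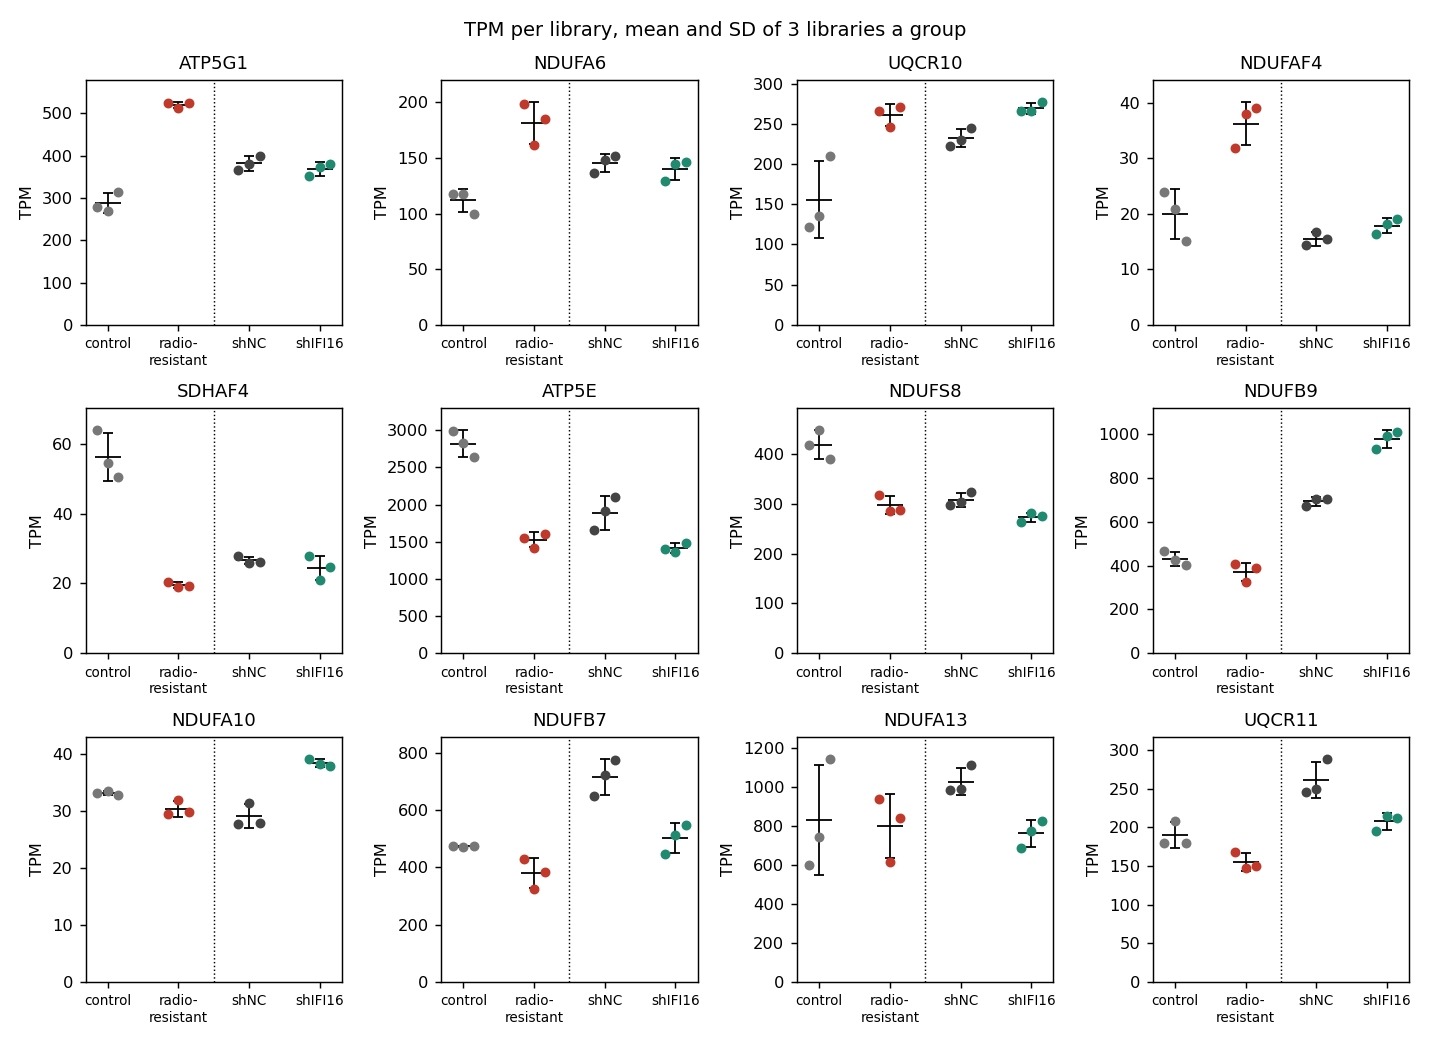
TPM in each library (points) for 12 members, with the mean (bar) and SD (whiskers) of 3 libraries a group; the dotted line parts the tables, which were normalized separately and are not to be compared across it. ATP5G1 stands at 513 to 525 TPM in radioresistant libraries, above all control libraries, and SDHAF4 at 19.1 to 20.5 TPM, below all of them; NDUFB9 is higher and NDUFB7, NDUFA13 and UQCR11 are lower in every shIFI16 library than in every shNC library.

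Control replicate 3 stood above the other control libraries for many members. In it 21 of 91 members (23.1%) lay more than 0.5 (log2) above the mean of control replicates 1 and 2, as did 7.98% of all genes, and 17 of the 21 reached the lowest radioresistant library. Members named next were picked from these 21 for their high value in that library. A larger change and a smaller p without it thus followed from the choice and are no separate support for a rise. NDUFA3, a subunit of the membrane arm, stood at 204, 239.9 and 727 TPM in control and 595, 612 and 710.5 TPM in radioresistant libraries. Its change was 0.95 (adjusted p = 0.19) with all libraries and 1.52 (adjusted p = 2.6e-09) without control replicate 3. NDUFA1, a membrane subunit needed for complex I assembly, stood at 232, 264 and 659 TPM and 602, 498 and 648 TPM, with a change of 0.75 (adjusted p = 0.18), or 1.22 (9.6e-08) without that library. UQCRH, the hinge protein of complex III, stood at 289.6, 322 and 757 TPM and 695, 565 and 752 TPM, with 0.69 (adjusted p = 0.18) or 1.12 (4.4e-07). Its near-identical copy UQCRHL followed it (0.58, or 0.97 without control replicate 3), and reads of this pair could not be told apart. COX6B1, which links the monomers of the complex IV dimer, stood at 317, 429.7 and 794 TPM and 824, 820.2 and 799 TPM, with 0.77 (adjusted p = 0.071) or 1.14 (2.9e-07). Over all members the omission of control replicate 3 gave 23 higher and 26 lower, with 55.6% of all genes called.

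**Figure D3:**
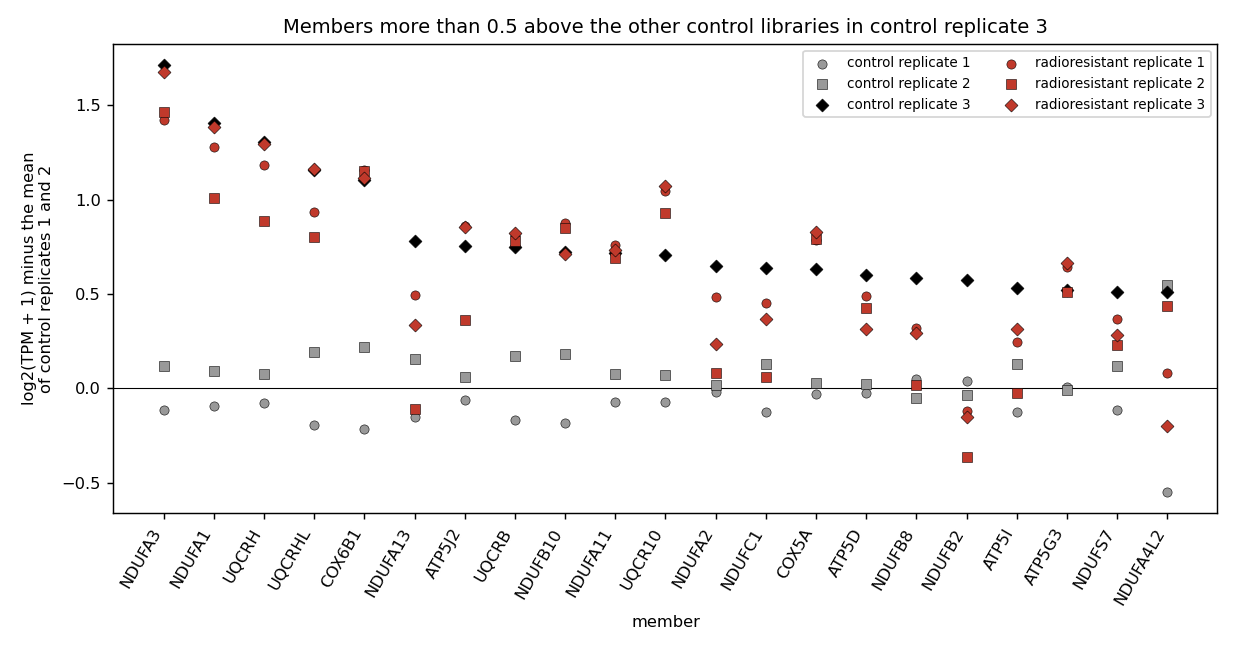
Level of the 21 members that stood more than 0.5 above the other control libraries in control replicate 3, as log2(TPM + 1) minus the mean of control replicates 1 and 2, in each of the 6 libraries. Black diamonds (control replicate 3) lie among or above the red radioresistant points for most members, from 1.71 for NDUFA3 down to 0.51 for NDUFA4L2.

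Calls were then followed through the omission of each library. Of the 34 called members, 17 stayed called whichever of the 6 libraries was left out, 5 higher (ATP5G1, NDUFA6, NDUFAF4, NDUFV3 and UQCR10) and 12 lower, among them ATP5E, ATP5S, COX7A2, COX7C, NDUFA5, NDUFAF3, NDUFS8, SDHAF4 and SDHC. These hold members of all 5 complexes and of the assembly factors. All of them but COX7C also passed under both scalings. The other 17 calls were lost in at least 1 omission, most often without control replicate 2 or radioresistant replicate 3, where 16 calls were lost in each case. Of all genes tested, 30.2% and 30.8% were called in these omissions, against 43.9% with all libraries. How many of all called genes stood in every omission was not computed, so the losses cannot be read as particular to the members.

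Position on the chromosome was read from RefSeq (GRCh38.p14) for all members. NDUFA6 (chr22:42085526-42090772) and UQCR10 (chr22:29767369-29770413) are the only tested members on chromosome 22, and both were higher in radioresistant cells. The 300 other genes tested on chromosome 22 had a median change of 0.54, with 63.0% called higher and 6% lower, against 17.0% and 27.0% of all genes with a position. Within 2 Mb of NDUFA6, 35 of 45 other genes were higher. NDUFA5, on chromosome 7, fell beside 8 other genes within 2 Mb, of which 7 were lower (median -1.11). ATP5G1 rose among neighbours with a median of -0.16, and ATP5E fell by far more than its neighbours (median -0.18). Over 91 members with at least 5 neighbours, the change of a member and the median of its neighbours had Pearson's r of 0.39 and Spearman's rho of 0.31. All changes come from the same 6 libraries, so this correlation is a description.

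After IFI16 knockdown the members moved little. Of 92 tested, 9 were higher and 10 lower in shIFI16 than in shNC cells, 19 in all or 20.7% (limma adjusted p under 0.05). The background was 32.9% of 12567 genes tested, with 16.6% higher and 16.3% lower. With the replicate number as a block, 31.5% of members and 44.6% of all genes were called. Members with a mean of at least 50 TPM were called in 15 of 78 cases (19.2%), against 40.6% of all such genes. The middle 50% of members lay between -0.08 and 0.06, a width of 0.14, whereas that of all genes had a width of 0.36. Median SE was 0.071 for members and 0.101 for all genes, and the widths were not compared at matched TPM. Of the members 0 changed by 1 or more on the log2 scale, as did 2.55% of genes, and the median was -0.02 beside 0.02 for all genes. With median-ratio scaling 7 members were higher and 5 lower, and all 19 called members kept their direction under both scalings. With it ATP5D (adjusted p = 0.063), NDUFA7 (0.054), NDUFS8 (0.084), NDUFA11 (0.064), UQCR10 (0.082) and NDUFAF2 (0.15), named in what follows, did not pass.

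Complex I held the largest changes after knockdown, with 2 members higher and 7 lower of 37 (24.3% called, background 32.9%). NDUFB9, a membrane-arm subunit of the LYR family, stood at 670.4, 704 and 703 TPM (shNC) against 933, 990.0 and 1008 TPM (shIFI16). Every shIFI16 library lay above every shNC library, a rise of 0.50 log2 units (SE 0.0577, limma adjusted p = 8.1e-06). NDUFA10, a nucleoside-kinase-like subunit of the membrane arm, rose from 27.8, 31.5 and 27.9 TPM to 39.2, 38.3 and 37.9 TPM by 0.39 log2 units (SE 0.0834, limma adjusted p = 0.0019). NDUFB7, a subunit on the intermembrane side, fell from 649, 723 and 776 TPM to 446, 514 and 549.5 TPM by 0.51 log2 units (SE 0.0824, limma adjusted p = 3.7e-04). NDUFA13, also known as GRIM-19 for its part in interferon and retinoid responses, fell from 987, 989.8 and 1112 TPM to 688, 777 and 825 TPM by 0.43 log2 units (SE 0.0723, limma adjusted p = 2.8e-04). NDUFA1 stood at 881, 952 and 1022 TPM (shNC) against 712, 773 and 834 TPM (shIFI16) and fell by 0.30 log2 units (SE 0.0703, limma adjusted p = 0.0039). NDUFA7, an accessory subunit of the matrix arm, fell by 0.27 (limma adjusted p = 0.0095) but did not pass without shNC replicate 3 (0.063). Of the catalytic subunits NDUFS8 fell by 0.17 (limma adjusted p = 0.036). Its call ended without shNC replicates 2 (0.067) and 3 (0.18) and shIFI16 replicates 1 (0.096) and 2 (0.076). The other 6 catalytic subunits did not pass, among them NDUFS1 (0.18). NDUFS7 was uneven among shNC libraries, at 295, 151 and 245 TPM, beside 195, 165 and 161 TPM in shIFI16 libraries (adjusted p = 0.43). Its limma adjusted p was 4.2e-04 without shNC replicate 2. That omission was picked because this library lay lowest, so the smaller p followed from the choice.

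Complexes II and IV had 0 called members after knockdown, of 4 and 13 tested by limma (background 32.9%). None of these members reached a change of 0.2 in either direction. At an unadjusted p under 0.05 limma called 0 of complex II and 2 of complex IV, NDUFA4 and COX7A2L. SDHA stood at 134, 131 and 123 TPM (shNC) against 132, 127 and 119.8 TPM (shIFI16). COX4I1 (-0.07, adjusted p = 0.45), COX5A (-0.01, 0.90) and COX5B (-0.0041, 0.97) had overlapping groups. In complex III UQCR11, the smallest subunit, stood at 246, 249.6 and 289 TPM (shNC) against 196, 215 and 212 TPM (shIFI16) and fell by 0.33 log2 units (SE 0.0701, limma adjusted p = 0.0020). UQCR10 rose by 0.21 (limma adjusted p = 0.012), from 232 ± 11.4 to 269 ± 6.76 TPM (mean ± SD, n = 3 each). The rise did not pass without shNC replicate 1 (0.055). UQCRFS1 (0.08) and UQCRC1 (-0.04) did not pass.

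In complex V 2 members were higher and 2 lower of 16 (25% called, background 32.9%). ATP5E stood at 1652, 1907 and 2105 TPM (shNC) against 1408, 1359 and 1480.2 TPM (shIFI16) and fell by 0.41 log2 units (SE 0.0775, limma adjusted p = 0.0010). ATP5F1, a peripheral stalk subunit, rose by 0.24 (adjusted p = 0.0080), from 190.0, 208 and 199.9 TPM to 247, 242 and 221 TPM. ATP5A1, the alpha subunit of the F1 head, rose by 0.19 (limma adjusted p = 0.021). Its call ended without shNC replicate 3 (0.12) and shIFI16 replicates 1 (0.051) and 2 (0.079). ATP5D, the delta subunit of the central stalk, fell by 0.23 (limma adjusted p = 0.016). That fall did not pass without shNC replicate 3 (0.079) and shIFI16 replicate 2 (0.052). The c ring genes ATP5G1 (-0.05), ATP5G2 (-0.03) and ATP5G3 (0.16) did not pass, and ATP5G1 held 365, 379.5 and 400.1 TPM (shNC) against 351, 374 and 381 TPM (shIFI16).

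Assembly factors were called in 4 of 12 cases after knockdown (33.3%, background 32.9%), all higher. SDHAF1, a factor for the iron-sulfur subunit SDHB, stood at 18.6, 21.4 and 19.3 TPM (shNC) against 24.3, 27.1 and 24.8 TPM (shIFI16). It rose by 0.35 log2 units (SE 0.0927, limma adjusted p = 0.0091) but did not pass without shIFI16 replicate 2 (0.065). NDUFAF6 rose by 0.31 (limma adjusted p = 0.029). This call was lost without shNC replicates 1 (0.052), 2 (0.076), 3 (0.096) and shIFI16 replicate 1 (0.080). SDHAF3 rose by 0.37 (adjusted p = 0.030), with shNC replicate 2 above the lowest shIFI16 library, and did not pass without shNC replicates 1 (0.058) and 3 (0.16) and shIFI16 replicates 2 (0.11) and 3 (0.062). NDUFAF2, a factor that acts late in complex I assembly, rose by 0.20 (limma adjusted p = 0.034). Its call ended without shNC replicates 1 (0.15) and 2 (0.095) and shIFI16 replicates 2 (0.089) and 3 (0.084). SDHAF4, the member with the largest fall in radioresistant cells, did not pass here (-0.12, adjusted p = 0.39). In all, 8 of the 19 calls stood in every omission of a library: NDUFB9, NDUFA10 and ATP5F1 higher, and NDUFA13, NDUFB7, NDUFA1, ATP5E and UQCR11 lower. Over these omissions 23.3% to 33.0% of all genes tested were called. The share of all called genes that stood in every omission was not computed here either.

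Of the 10 lower members, 6 lie on chromosome 19, and all 6 on its part below 26 Mb: NDUFA7, NDUFA11, NDUFA13, NDUFB7, ATP5D and UQCR11. NDUFS7, the last of the 7 members there, had the same sign (-0.36) and did not pass. On that part the 386 other genes tested had a median change of -0.21, with 44.3% called lower and 3.11% higher, against 16.5% and 16.7% of all genes with a position. On the rest of chromosome 19, 459 other genes had a median of 0.08, and 1 of 5 members was called, SDHAF1, higher. Of 64 other genes within 2 Mb of NDUFB7 (chr19:14566078-14572066) 36 were lower, and of 76 near UQCR11 (chr19:1597169-1605462) 39 were. NDUFB9 on chromosome 8 had 10 of 18 neighbours higher (median 0.27). Over 89 members the change of a member and the median of its neighbours within 2 Mb had Pearson's r of 0.45 and rho of 0.31. ATP5E, on chromosome 20, lay outside this pattern, with a neighbour median of -0.03. The division at 26 Mb was chosen after the values were seen.

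**Figure D4:**
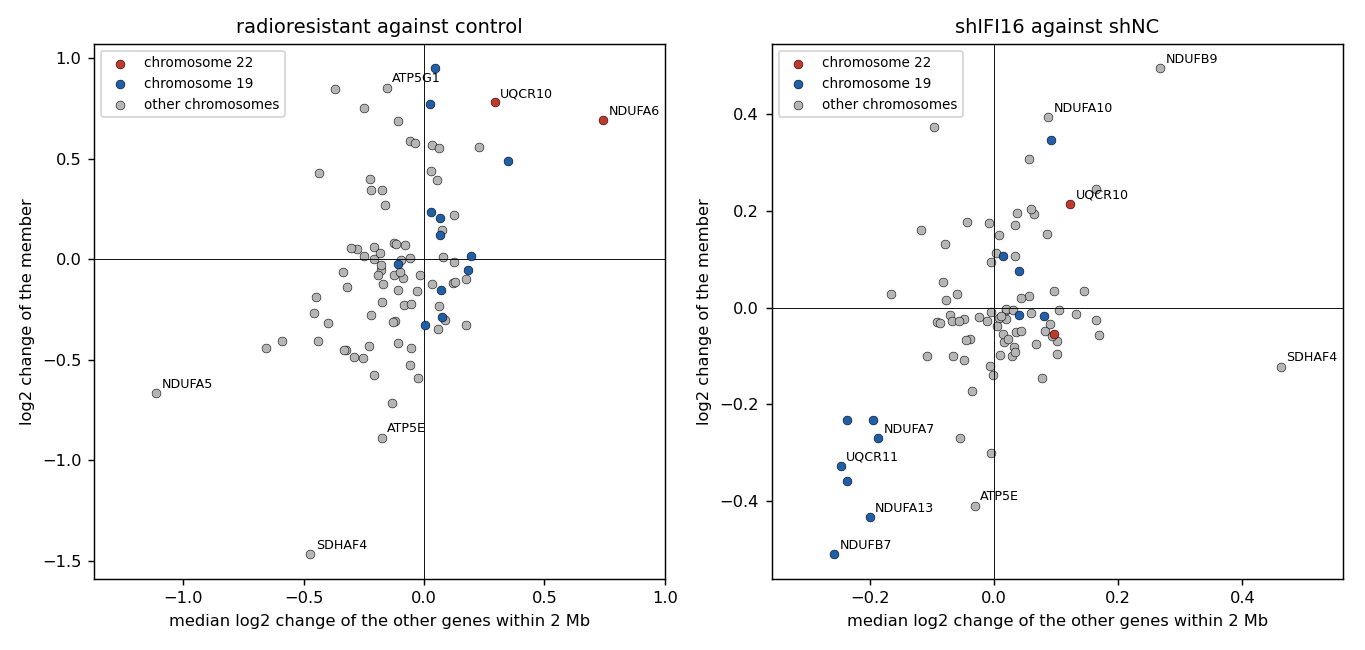
Log2 change of each member (vertical) against the median log2 change of the other tested genes within 2 Mb (horizontal), for radioresistant against control cells (left, 91 members) and shIFI16 against shNC cells (right, 89 members), with chromosomes 19 and 22 in colour. On the left NDUFA6 and UQCR10 lie at upper right with neighbour medians of 0.74 and 0.29; on the right members of chromosome 19 fill the lower left, down to -0.51 for NDUFB7.

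Set side by side, 91 members were tested in both comparisons, and 45 passed in neither. The comparisons share no library, although both hairpin groups derive from radioresistant cells. UQCR10 and NDUFAF2 were higher in both, and ATP5E, NDUFB7 and NDUFS8 lower in both. The same counts were not made over the 12359 genes tested in both, so they cannot be read as particular to the members. In radioresistant cells NDUFB7 fell by 0.33 (adjusted p = 0.043), a call that passed in only 5 of 13 alternative settings, with an adjusted p of 0.24 under median-ratio scaling. NDUFA11, a membrane subunit of complex I, rose by 0.49 in radioresistant cells (adjusted p = 0.046), or by 0.73 without control replicate 3. That call passed in 5 of 13 alternative settings and was lost without control replicates 1 (0.13) and 2 (0.15) and radioresistant replicates 1 (0.11), 2 (0.093), 3 (0.12), among others. After knockdown NDUFA11 fell by 0.23 (adjusted p = 0.012), which passed in 10 of 13 settings and was lost without shIFI16 replicate 1 (0.053), with median-ratio scaling (0.064) and in limma without trend and robust (0.070). SDHAF3 fell and then rose, as given above. Of the 34 members called in radioresistant cells, 27 (79.4%) did not pass after knockdown, ATP5G1, NDUFA6 and SDHAF4 among them, nor did 79.1% of all 91 members. Among all genes tested in both, 62.0% of the 5314 called in radioresistant cells did not pass after knockdown. Whether the changes differ between the comparisons was not tested, since the tables were normalized apart.

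**Figure D5:**
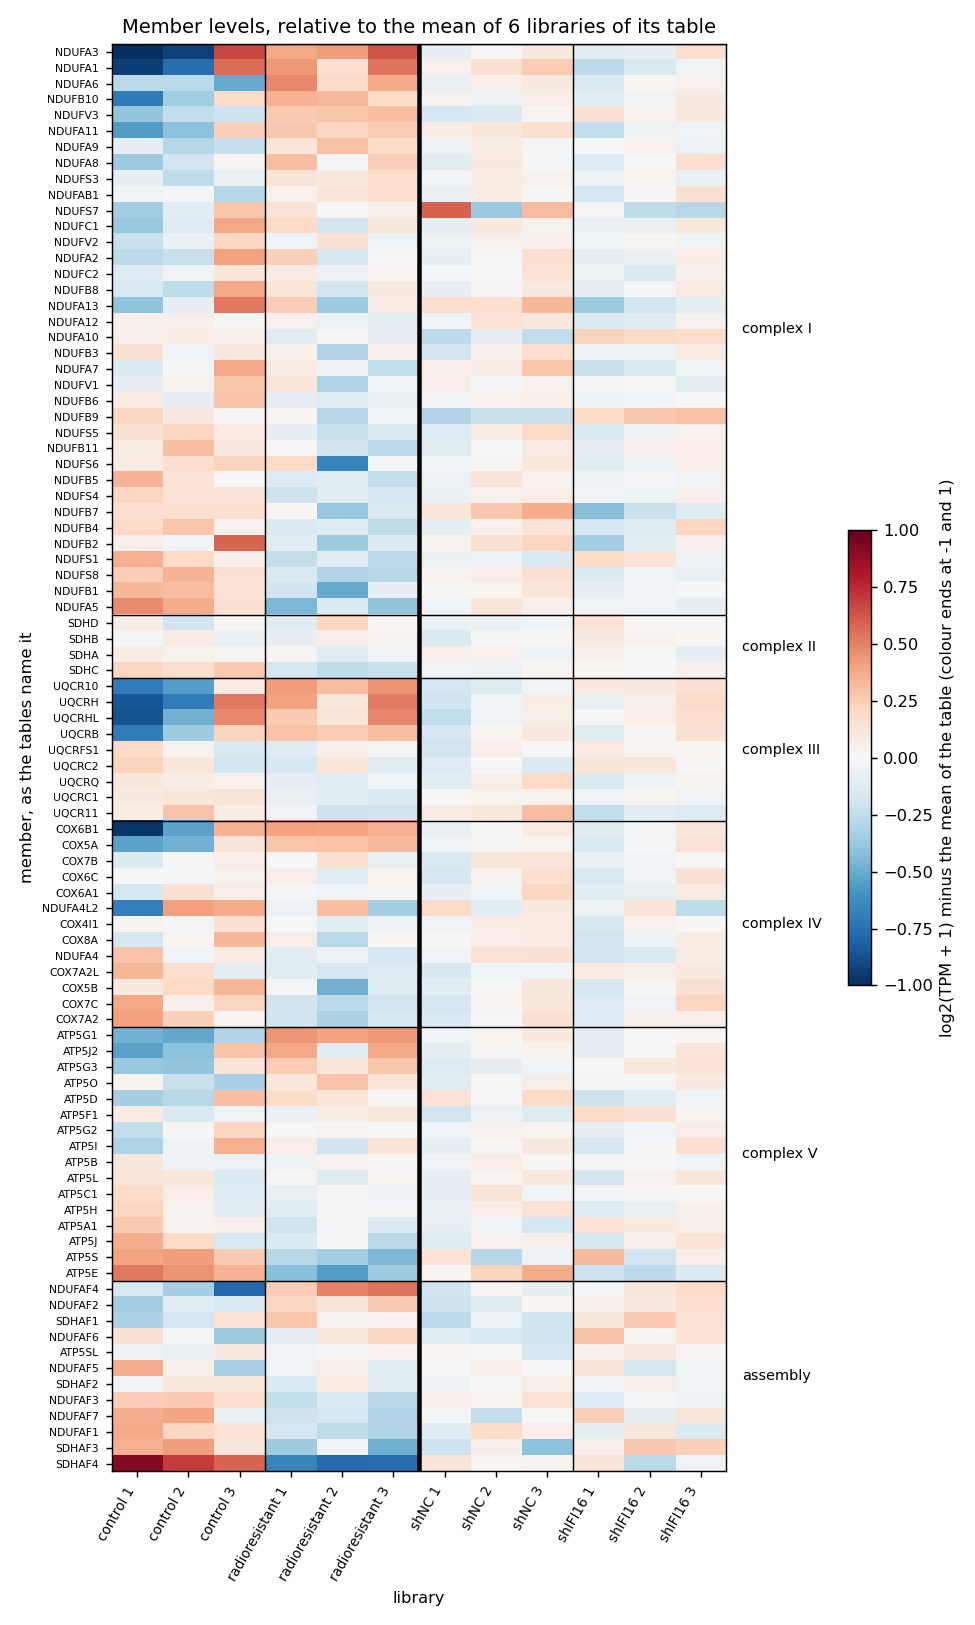
Level of members tested in both tables, as log2(TPM + 1) minus the mean of the 6 libraries of the same table, by complex and, within it, by change in radioresistant cells. Control replicate 3 differs in colour from control replicates 1 and 2 for NDUFA3, NDUFA1, UQCRH and COX6B1, whereas the knockdown columns stay pale apart from a few members such as NDUFB9, NDUFB7 and NDUFS7.

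Other genes of the pathway were taken from lists outside the symbol rule, and their shares called stand beside the background of 43.9% in radioresistant cells and 32.9% after knockdown. Of 13 further subunits, carriers and electron entry enzymes, 3 were higher and 5 lower in radioresistant cells (61.5% called). CYCS, cytochrome c itself, stood at 77.3, 70.4 and 85.9 TPM (control) against 136, 154 and 172 TPM (radioresistant) and rose by 0.97 (SE 0.124, adjusted p = 1.4e-04). CYC1, cytochrome c1 of complex III, rose by 0.87 from 205, 201 and 257 TPM to 433, 356 and 422 TPM (adjusted p = 3.7e-04), and SQRDL, which feeds electrons from sulfide, by 0.87. AIFM1, which supports complex I biogenesis, fell by 0.68 (adjusted p = 3.5e-04). After knockdown 4 of the 13 were higher and 1 lower (38.5%): GPD2, the glycerol phosphate shuttle enzyme, rose by 0.46 and SQRDL fell by 0.62. The 13 mitochondrially encoded subunits were not analysed here.

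Of 45 assembly factors outside the prefix rule, 10 were higher and 11 lower in radioresistant cells (46.7% called, near the background of 43.9%) and 5 and 5 after knockdown (22.2%, background 32.9%). For complex IV, COX18, which inserts a core subunit into the membrane, fell by 1.43 from 17.4, 17.2 and 16.6 TPM to 5.45, 5.903 and 5.75 TPM (adjusted p = 1.0e-05). SURF1, a complex IV factor mutated in Leigh syndrome, fell by 1.07 from 70.4 ± 7.08 to 33.2 ± 3.63 TPM (mean ± SD, n = 3 each, adjusted p = 9.3e-05), and TTC19, a complex III factor, by 1.00. SCO2, which delivers copper to complex IV, stood at 10.1, 16.1 and 37.5 TPM in control and 90.7, 77.1 and 93.2 TPM in radioresistant libraries. It rose by 2.18 (limma adjusted p = 0.0084), or by 2.67 without control replicate 3, and did not pass without control replicate 2 (0.057). The complex IV factors COA7 and COA6 rose by 0.68 and 0.58. After knockdown PET100, a complex IV factor, fell by 0.52 (adjusted p = 5.7e-04), and ATPAF1, a factor for the F1 head, rose by 0.29. Coenzyme Q genes, which make the mobile electron carrier, were higher in 2 and lower in 5 of 13 cases in radioresistant cells (53.8%) and higher in 2 with 0 lower after knockdown (15.4%). ADCK3, of the coenzyme Q list, rose in both sets, by 0.58 and 0.33, the latter not past the threshold without shIFI16 replicate 2 (limma adjusted p = 0.073).

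Among 22 regulators of nuclear respiratory genes and of mitochondrial DNA, 5 were higher and 5 lower in radioresistant cells (45.5% called, near the background of 43.9%), and 2 higher and 2 lower after knockdown (18.2%, background 32.9%). NRF1, whose letters were sought in the promoters, stood at 20.6, 18.4 and 16.98 TPM in control and 12.04, 12.3 and 13.4 TPM in radioresistant libraries and fell by 0.53 (adjusted p = 0.0070). MTERF1, which binds mitochondrial DNA, fell by 1.06 (adjusted p = 2.2e-04). PPARGC1B, a coactivator and 1 of the 5 higher, averaged 0.524 ± 0.0917 TPM in control and 2.37 ± 0.391 TPM in radioresistant cells (change 1.14), and it passed the filter through the radioresistant group alone, which fixed its direction. After knockdown TFAM, which packages mitochondrial DNA, rose from 27.98, 27.7 and 24.7 TPM to 40.1, 37.1 and 36.2 TPM by 0.48 (adjusted p = 5.0e-04). YY1 rose by 0.31, while the mitochondrial transcription genes POLRMT and TFB2M fell by 0.43 and 0.41.

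Of 18 genes of the citrate cycle and pyruvate dehydrogenase, 1 was higher and 2 lower in radioresistant cells (16.7% called, background 43.9%). IDH2, the mitochondrial isocitrate dehydrogenase that makes NADPH, fell by 1.13 from 72.6 ± 3.58 to 33.1 ± 6.77 TPM (adjusted p = 1.9e-04). After knockdown 9 of the 18 were higher and 1 lower (55.6% called, background 32.9%). PDHX, a structural part of pyruvate dehydrogenase, rose from 36.8, 41.6 and 40.3 TPM to 60.9, 54.7 and 55.7 TPM by 0.52 (adjusted p = 1.3e-04), PDHA1 rose by 0.29 and SUCLG1 by 0.28. The mitochondrial ribosome, which translates the subunits encoded in the organelle, had 13 genes higher and 9 lower of 77 in radioresistant cells (28.6% called, median 0.14) and 18 higher and 6 lower after knockdown (31.2%, median 0.08). MRPS18B rose by 0.52 and MRPL34 fell by 0.51 after knockdown (adjusted p = 2.9e-05 and 1.9e-05).

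Summed over all 100 members, the nuclear genes made up 2.91 to 3.34% of TPM in control and 2.74 to 2.98% in radioresistant libraries, where control replicate 3 held the highest share. In the second table the sum was 3.26 to 3.68% in shNC and 3.15 to 3.54% in shIFI16 libraries. Complex I summed to 10257 ± 1213 TPM in control and 9920 ± 733 TPM in radioresistant libraries (mean ± SD, n = 3 each). In the second table shNC libraries had 13768 ± 758 TPM for complex I and shIFI16 libraries 12812 ± 799 TPM. These sums overlap between groups in both tables. After knockdown, however, complex I summed lower at each replicate number: 13021 against 12036 for number 1, 13746 against 12770 for 2, and 14537 against 13632 for 3. In the first table the order was mixed, with radioresistant replicate 1 above control replicate 1 and replicates 2 and 3 below. Replicate numbers were not taken to pair the libraries, so this fall was not tested. For complex IV the sum was 8549 ± 609.9 TPM in control and 7738 ± 253 TPM in radioresistant libraries, with no overlap. For assembly factors it was 492 ± 14.04 TPM and 433 ± 7.70 TPM, again with no overlap, nor in the second table, where shNC libraries had 485 ± 12.8 TPM and shIFI16 libraries 509 ± 7.42 TPM. Sums are led by a few short, abundant members such as COX7C and ATP5E, and no test was made of them.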

How the data were processed

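Gene expression was deposited as 2 tables of TPM, 1 for control and radioresistant cells and 1 for shNC and shIFI16 cells, made by the authors from RNA-seq reads aligned to hg38. The submitters' processing notes list Cufflinks 2.2.1, featureCounts, TopHat and Trim Galore 0.6.6 with no order. Each column sums to 1000000, so read depth is unknown. ATAC-seq summits were deposited as 1 list per condition with the −log10 q-value of MACS2, and the same notes name Bowtie2 2.2.5, SAMtools 1.10 and MACS2 2.1.4.

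The members and gene lists were chosen with earlier results of these data known. Genes that reached 1 TPM in 3 or more of the 6 libraries of a table were tested on log2(TPM + 1) with limma 3.58.1 (R 4.3.3, statmod 1.5.0, trend and robust moderation), two-sided, with Benjamini-Hochberg adjustment over all genes tested. The procedure was first tested on simulated data. Because of the added 1 TPM, a log2 change of a low gene is smaller than that of its TPM alone. Rows whose symbols had turned into dates (28) were left out. Named members are up to 4 per direction, complex and comparison by smallest p, the catalytic subunits and the sets of isoforms, and from each other list up to 3 per direction. A few results that this rule covers are not reported here. NDUFA1 and NDUFB7 in radioresistant cells, NDUFA3, UQCRH, UQCRHL, NDUFA11, NDUFB4 and ATP5EP2 were named after their values were seen, as were members listed by name for a motif, a summit, a region of a chromosome or a stable call.

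Alternatives covered the pseudocount, the filter, median-ratio and quantile scaling, limma without trend and robust, the replicate number as a block, the threshold, structural subunits alone and each library left out. The background of genes with at least 50 TPM, a window of 5 Mb and the division of chromosome 19 were chosen after seeing the data. Promoters and positions came from RefSeq (GRCh38.p14), and figures were drawn with matplotlib 3.10.9 in Python 3.11.15 (pandas 2.3.3, numpy 2.4.6, scipy 1.17.1).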

Additional observations from a re-analysis of the deposited data

How the results depend on the processing

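Counts are of called members. In radioresistant cells (13 higher and 21 lower), leaving out 1 library gave 6 to 23 higher and 12 to 26 lower: 8 and 15 without control replicate 1, 6 and 13 without control replicate 2, 23 and 26 without control replicate 3, 7 and 16 without radioresistant replicate 1, 9 and 16 without replicate 2 and 6 and 12 without replicate 3. Median-ratio scaling gave 13 lower, no filter on low values 8 higher, limma without trend and robust 8 higher, and an adjusted p of 0.01 gave 5 higher and 11 lower. After knockdown (9 higher and 10 lower), the ranges over omissions were 5 to 9 higher and 6 to 13 lower, with 5 higher without shNC replicate 1 or shIFI16 replicate 2 and 6 lower without shNC replicate 3. There, no filter gave 6 lower, median-ratio scaling 5 lower, limma without trend and robust 4 higher and 5 lower, structural subunits alone 5 higher, and an adjusted p of 0.01 gave 4 higher and 6 lower. Omissions put the share of all genes called at 23.3% to 33.0%. Members and all genes were called in 13.5% and 19.2% with no filter, and 13.0% and 36.7% with median-ratio scaling. Without trend and robust the shares were 9.78% and 27.9%. No share of all genes was set beside the counts at 0.01. The cause of these shifts was not tested.

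Same-numbered libraries did not deviate together in the first table (correlations -0.38, 0.24 and 0.08), nor strongly in the second (0.22, 0.09 and 0.03), and not every library correlated best with its own number, so the numbers were not taken to pair the libraries. Summed TPM of the members nevertheless rose with the number in both knockdown groups, at 32625, 35162 and 36764 (shNC) and 31529, 33297 and 35410 (shIFI16). Whether same-numbered libraries share an effect was not tested. With the replicate number as a block, 13 members were higher and 19 lower in radioresistant cells (35.2% called, against 42.4% of all genes). After knockdown the block gave 16 higher and 13 lower (31.5% called, against 44.6% of all genes). Without the block the shares were 20.7% and 32.9%, so the knockdown counts given above hold only for libraries read as unpaired.

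Median changes of the complexes in radioresistant cells, all near 0, shifted with the scaling. Median-ratio scaling gave -0.0019 for complex I, 0.0895 for II, 0.0730 for III, 0.0049 for IV, 0.1252 for V and 0.0321 for assembly factors, and quantile normalization gave -0.0616 for complex I and 0.0183 for assembly factors. Omissions of 1 library gave -0.1477 to -0.0375 for complex I, -0.0587 to -0.0296 for II, -0.1423 to 0.0343 for III and -0.1433 to -0.0016 for IV, and 0.1053 to 0.1396 for assembly factors after knockdown. With summits of score 5 or more only, 1 member had one in the control and 17 in the radioresistant ATAC-seq library. Over the 149 gene results tried under alternatives, 1751 of 1928 values kept their side of the threshold, 157 no longer passed and 20 newly passed. Called genes kept their sign in all of these values, while 39 values of members that passed in neither setting changed sign. Libraries of unknown depth and 3 per group limit which small changes can be seen.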
